A study of Homo sapiens with 6 samples.

Results

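Among the protein-coding genes of HEK293T cells, 109 had less mRNA 4 h after a pulse of ultraviolet light than either before the pulse or 8 h after it. These genes were chosen by that pattern. Levels are given in CPM, the estimated counts of a gene for every 1000000 counts of all genes in that library. A gene was a member if its mean reached 5 CPM over the 6 libraries, if both 4 h libraries lay below the other 4, if the log2 ratio of the 4 h to the 0 h mean was -0.3 or less, and if the log2 ratio of the 8 h to the 4 h mean was 0.3 or more. Genes with MT- or ZNF symbols were left out. Of 60179 gene rows, 10827 protein-coding genes reached the level and are called eligible here, and 614 of them (5.67%) had both 4 h libraries below the other 4. The 109 members made up 1.01% of the eligible genes. All 6 libraries entered the choice, so the fall at 4 h and the rise at 8 h are given as values with no test. The difference between 8 h and 0 h, on which the rule set no direct limit, was tested, although it uses the same libraries and is narrowed by a rule that asks for opposite steps. In bulk RNA, fewer cells of a kind and less RNA per cell cannot be told apart.

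HEK293T is a line of human embryonic kidney origin that carries the SV40 large T antigen. All 3 groups were HEK293T cells co-transfected with the plasmids pShP2419 and pStH1169 and grown over 48 h in 0.1 mM of a light-sensitive amino acid. This compound, 4,5-dimethoxy-2-nitrobenzyl-L-serine, is a serine blocked by a group that light removes. In the caged 0 h group (n = 2 libraries) no light was given. The uncaged 4 h (n = 2) and uncaged 8 h (n = 2) groups received 365 nm light for 3 min, and their RNA was taken 4 h and 8 h later. The series asks how mRNA stood before and after activation of human TET2, an enzyme that oxidises 5-methylcytosine. Each sample came from 500000 transfected cells isolated by flow cytometry. The expression is transient and in 1 cell line, and no group received light without the caged enzyme or was collected later without light, so light, time in fresh medium and enzyme cannot be told apart. The labels do not say that replicates were separate cultures, and every p-value here reflects spread between libraries that may be technical.

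The gene rows held 14903812 to 17670499 estimated counts a library, and a count of 0 would allow up to 3 counts, or 0.170 to 0.201 CPM, counting error only. Of the markers chosen for HEK293 cells, VIM was at 457 to 539 CPM and the kidney and neural factors PAX2 and LHX1 at 4.23 to 7.13 and 2.36 to 4.58 CPM. Among markers of other cell types, COL1A1, a collagen of fibroblasts, was at 16.4 to 20.2 CPM, most of the sum of that whole list (18.5 to 23.1 CPM), while KRT5 was at 0 in every library and PTPRC at 0.0663 CPM or less. TET2, which shares reads with the plasmid, was at 3379 to 4513 CPM. TET1, another 5-methylcytosine oxidase, was at 43.0 and 40.9 CPM at 0 h, 28.7 and 27.5 CPM at 4 h and 21.1 and 25.1 CPM at 8 h. Both later groups lay below 0 h, and TET1 is not a member because its 8 h libraries lay below those of 4 h.

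The replicates of 8 h differed from each other for these genes, and which of them was unusual cannot be told. At 8 h, replicate 2 exceeded replicate 1 in 95 of the 109 members (87.2%), against 46.8% of the eligible genes, and the median log2 ratio of replicate 2 to replicate 1 was 0.24 over the members and -0.010 over the eligible genes. At 0 h the same gap was positive in 78 members (71.6%, against 50.2% of the eligible genes), with a median of 0.097. At 4 h it was positive in 50 members, with a median of -0.023. Without replicate 2 of 8 h the rule was met by 88 genes, 68 of them members, and without replicate 1 of 8 h by 194 genes, 107 of them members. Without replicate 1 of 4 h it was met by 244 genes, 84 of them members, and without replicate 2 of 4 h by 165, 88 of them members. A library left out also leaves the condition that the 4 h libraries lie below the others, so more genes can pass by construction. When each of the 6 libraries was left out in turn, 40 members met the rule every time.

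Messenger RNA levels reflect both synthesis and decay, and a transcript with a short life follows a change in either within hours. Many genes of the group serve RNA processing, chromosome segregation, the centrosome and the Golgi. Lysine is encoded by the codons AAA and AAG, and glutamate by GAA and GAG.

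At 4 h the members stood a median of 27.2% below their 0 h mean, with a range of 18.8% to 62.6%. The median log2 ratio of 4 h to 0 h was -0.46 over the members, with a range of -1.42 to -0.30, and -0.048 over the eligible genes. From 4 h to 8 h the median log2 ratio was 0.46, with a range of 0.30 to 0.98, against -0.073 over the eligible genes. Both steps are set by the rule, and since they must oppose, their sum is held towards 0 by it too. The 8 h to 0 h median was 0.0012 over the members and -0.12 over the eligible genes on the CPM scale. The members were expressed at lower levels than the eligible genes, with a median of 22.7 CPM against 44.3 CPM. The opposite pattern, with both 4 h libraries above the other 4 and the same steps reversed, was met by 64 genes, among 1037 (9.58%) with both 4 h libraries above the other 4.

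**Figure D1:**
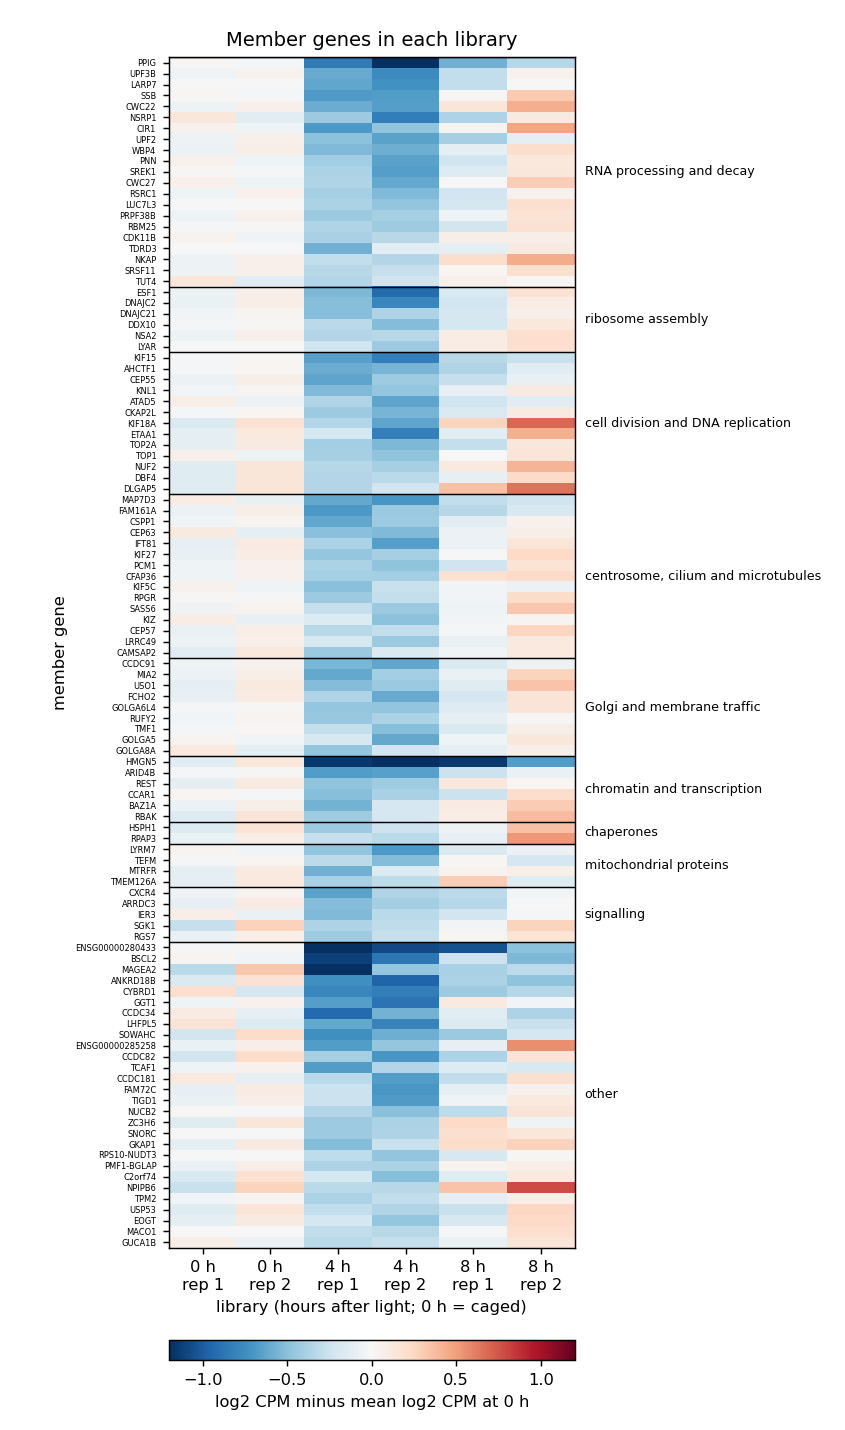
Level of each of the 109 members in each of the 6 libraries, as log2 CPM minus the gene's mean log2 CPM at 0 h, with members down the page in groups by the role of their protein. Blue is below and red above the 0 h mean, and differences beyond the ends of the colour bar take its end colour. The 4 h columns are low for all members by the rule, and replicate 2 of 8 h is above replicate 1 in 95 of the 109.

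Factors that process or degrade RNA were the most numerous group by role, with 21 members. Roles were assigned after the values were seen and to members only. With no share among the eligible genes beside them, the role counts here and below show no excess of any role. Their median log2 ratio was -0.51 from 0 h to 4 h and 0.51 from 4 h to 8 h. PPIG, a nuclear cyclophilin that binds splicing factors, had 61.2 and 59.7 CPM at 0 h, 33.5 and 26.3 CPM at 4 h and 40.5 and 47.7 CPM at 8 h. Its 4 h mean was 50.6% below that of 0 h, and both 8 h libraries remained below both 0 h libraries, as in 51.6% of the eligible genes. At 8 h against 0 h PPIG was just short of the threshold of 0.05 in edgeR's quasi-likelihood test (adjusted p = 0.0526). SSB, the La protein, which binds the ends of newly made RNA polymerase III transcripts, had 52.8 and 51.6 CPM at 0 h, 32.7 and 32.9 CPM at 4 h and 52.8 and 64.8 CPM at 8 h. For SSB, replicate 1 of 8 h lay within the 0 h range and replicate 2 above it. LARP7, a La-related protein of the 7SK particle that holds back transcription elongation, had 12.03 and 11.96 CPM at 0 h, 7.79 and 7.27 CPM at 4 h and 9.78 and 12.01 CPM at 8 h. Its 8 h replicate 2 reached the 0 h level and replicate 1 did not.

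Several of these proteins join the spliceosome to later events of the transcript. CWC22, which loads the helicase of the exon junction complex onto spliced RNA, had 9.79 and 10.7 CPM at 0 h, 6.76 and 6.49 CPM at 4 h and 11.4 and 13.8 CPM at 8 h. Its 8 h libraries were the highest of the 6. UPF3B, which links the exon junction complex to nonsense-mediated decay, had 84.3 and 89.5 CPM at 0 h, 57.1 and 51.0 CPM at 4 h and 70.6 and 90.1 CPM at 8 h. UPF2, the adaptor that binds UPF3B and UPF1 in the same decay pathway, had 65.9 and 72.2 CPM at 0 h, 49.1 and 44.1 CPM at 4 h and 52.4 and 63.9 CPM at 8 h. For both decay factors the 8 h libraries differed from each other by more than the 0 h libraries did. CIR1, a corepressor that also binds splicing factors, had 21.1 and 19.6 CPM at 0 h, 12.6 and 14.5 CPM at 4 h and 20.8 and 28.1 CPM at 8 h. WBP4, a protein of the spliceosome that binds proline-rich partners, had 18.7 and 20.6 CPM at 0 h, 13.6 and 13.1 CPM at 4 h and 18.2 and 22.7 CPM at 8 h. In CIR1 and WBP4 the 8 h libraries overlapped those of 0 h.

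Splicing factors were among the more abundant members. SRSF11, a splicing regulator with an arginine-serine domain, had 228 and 246 CPM at 0 h, 188 and 196 CPM at 4 h and 241 and 271 CPM at 8 h. PRPF38B, a splicing factor, had 135 and 145 CPM at 0 h, 103 and 106 CPM at 4 h and 135 and 157 CPM at 8 h. LUC7L3, a relative of a yeast U1 snRNP protein, had 100.5 and 99.7 CPM at 0 h, 76.8 and 71.9 CPM at 4 h and 86.3 and 114 CPM at 8 h. In all of these, replicate 2 was the higher 8 h library. TUT4, a uridylyltransferase that tails RNA for decay, stood just inside the limit on the fall, with 51.2 and 42.6 CPM at 0 h, 36.6 and 39.6 CPM at 4 h and 48.7 and 47.2 CPM at 8 h.

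The list of 37 RNA splicing factors, all eligible, held LUC7L3 and SRSF11 as its members (5.41%). Over the whole list the median log2 ratio of 4 h to 0 h was 0.20. At 8 h against 0 h, edgeR's quasi-likelihood test at an adjusted p of 0.05 called 30 of the 37 higher and 0 lower, where 14.9% and 13.2% of all tested features were called, with a median log2 difference of 0.43 on the edgeR scale. At an unadjusted p of 0.05 it placed 33 higher and 0 lower, and DESeq2 and limma-voom each called 31 higher and 0 lower. Neither LUC7L3 nor SRSF11 was called by edgeR, with log2 differences of 0.11 ± 0.12 (SE, adjusted p = 0.519) and 0.22 ± 0.071 (SE, adjusted p = 0.0529). SRSF11 was near the threshold, and it was called higher by DESeq2 (adjusted p = 0.0294) and limma-voom (adjusted p = 0.0477).

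Ribosome assembly factors, with the ribosome-bound chaperone DNAJC2 counted among them, formed a smaller group of 6 members. Its median log2 ratio was -0.43 at 4 h and 0.48 from 4 h to 8 h. ESF1, a nucleolar protein whose yeast relative is needed to process ribosomal RNA, had 19.3 and 21.0 CPM at 0 h, 13.8 and 10.6 CPM at 4 h and 17.8 and 22.7 CPM at 8 h. DNAJC2, a J-domain chaperone that sits on ribosomes, had 26.6 and 29.8 CPM at 0 h, 19.7 and 16.3 CPM at 4 h and 24.0 and 29.9 CPM at 8 h. NSA2, whose yeast relative acts in large-subunit assembly, had 109 and 118 CPM at 0 h, 88.7 and 90.2 CPM at 4 h and 120.3 and 131 CPM at 8 h. Of these 3, NSA2 had both 8 h libraries above both 0 h libraries, while in ESF1 and DNAJC2 the 8 h replicates lay on either side of the 0 h libraries. The other members of this group, DNAJC21, DDX10 and LYAR, stood 20.7% to 26.2% below 0 h at 4 h.

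Genes of cell division and DNA replication numbered 13, with medians of -0.49 at 4 h and 0.47 from 4 h to 8 h. KIF18A, a kinesin that damps chromosome movement on the metaphase spindle, had 20.1 and 25.4 CPM at 0 h, 17.7 and 14.6 CPM at 4 h and 27.1 and 36.4 CPM at 8 h. DLGAP5, which stabilises spindle microtubules, had 43.7 and 53.6 CPM at 0 h, 37.9 and 41.0 CPM at 4 h and 61.6 and 76.0 CPM at 8 h. For both spindle proteins the 8 h libraries were the highest of the 6. KIF15, another spindle kinesin, had 14.1 and 14.4 CPM at 0 h, 9.05 and 8.08 CPM at 4 h and 11.3 and 11.9 CPM at 8 h. Unlike KIF18A, KIF15 had both 8 h libraries below both 0 h libraries, as 51.6% of the eligible genes did. KIF15 was not called at 8 h against 0 h by edgeR's quasi-likelihood test (adjusted p = 0.221).

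Topoisomerases and replication factors were among them too. TOP2A, which untangles sister chromatids, had 113 and 131 CPM at 0 h, 91.7 and 83.7 CPM at 4 h and 99.6 and 134 CPM at 8 h. TOP1, which relaxes supercoils ahead of polymerases, had 135 and 124 CPM at 0 h, 98.2 and 92.6 CPM at 4 h and 129 and 144 CPM at 8 h. CEP55, which recruits the abscission machinery to the midbody, had 59.8 and 66.3 CPM at 0 h, 40.6 and 46.7 CPM at 4 h and 52.0 and 59.2 CPM at 8 h. The 8 h replicates of TOP2A were further apart than its 0 h or 4 h replicates. ATAD5, which unloads the sliding clamp from DNA, had 31.1 and 28.1 CPM at 0 h, 22.96 and 19.0 CPM at 4 h and 25.1 and 26.8 CPM at 8 h, just past the limit on the rise. The kinetochore proteins KNL1 and NUF2, the spindle protein CKAP2L, the kinase activator DBF4, the checkpoint protein ETAA1 and the nuclear pore protein AHCTF1 stood 21.4% to 32.8% below 0 h at 4 h.

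Of the list of 46 G2 and mitosis genes, all eligible, 3 were members (6.52%): KIF18A, TOP2A and DLGAP5. At 8 h against 0 h, edgeR called 16 of the 46 higher and 5 lower, where 14.9% and 13.2% of all tested features were called, with a median log2 difference of 0.13, against -0.0046 over all tested features. The median log2 ratio of the list at 4 h was -0.067.

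The centrosome, the cilium and microtubules accounted for 15 members, with medians of -0.40 at 4 h and 0.44 from 4 h to 8 h. IFT81, which binds tubulin for transport into the cilium, had 15.1 and 17.3 CPM at 0 h, 12.4 and 10.2 CPM at 4 h and 15.4 and 17.9 CPM at 8 h. PCM1, the scaffold of centriolar satellites, had 70.4 and 76.0 CPM at 0 h, 56.1 and 52.5 CPM at 4 h and 62.0 and 82.2 CPM at 8 h. SASS6, which forms the cartwheel of a new centriole, had 25.7 and 27.4 CPM at 0 h, 21.8 and 19.5 CPM at 4 h and 25.6 and 33.1 CPM at 8 h. For PCM1 and SASS6 replicate 1 of 8 h was below both 0 h libraries and replicate 2 above both. CFAP36, a protein of cilia, had 22.6 and 24.2 CPM at 0 h, 17.7 and 17.6 CPM at 4 h and 26.4 and 27.4 CPM at 8 h, and its 3 groups did not overlap. KIF27, a kinesin of motile cilia, had 6.27 and 7.10 CPM at 0 h, 4.82 and 5.07 CPM at 4 h and 6.63 and 7.89 CPM at 8 h. Among the others were the centrosome proteins CEP57, CEP63 and CSPP1 and the minus-end binding protein CAMSAP2, and the whole group stood 19.4% to 36.8% below 0 h at 4 h. Of the list of 55 centrosome and cilium genes, 4 were members (7.27%), IFT81, PCM1, SASS6 and CEP55, and edgeR called 6 of the 55 higher and 3 lower at 8 h against 0 h, where 14.9% and 13.2% of all tested features were called.

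Golgi and membrane traffic genes numbered 9, with medians of -0.47 at 4 h and 0.46 from 4 h to 8 h. CCDC91, a coiled-coil partner of Golgi clathrin adaptors, had 12.6 and 13.6 CPM at 0 h, 8.99 and 8.48 CPM at 4 h and 11.6 and 12.6 CPM at 8 h. USO1, the vesicle tether p115, had 38.1 and 44.8 CPM at 0 h, 28.8 and 30.3 CPM at 4 h and 37.4 and 52.4 CPM at 8 h. The 8 h replicates of USO1 lay on either side of both 0 h libraries. In all 9 of these genes, replicate 2 was the higher 8 h library. GOLGA6L4 and GOLGA8A belong to a family of near-identical copies, so their estimates are uncertain.

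Chromatin proteins and chaperones were few. HMGN5, a nucleosome-binding protein with a long acidic tail, had the largest fall of the 109, with 8.55 and 10.3 CPM at 0 h, 4.20 and 2.85 CPM at 4 h and 4.21 and 5.90 CPM at 8 h. Its 8 h libraries overlapped none of the 0 h libraries and remained below them. HSPH1, a cytosolic chaperone that exchanges nucleotide on HSP70, had 138 and 172 CPM at 0 h, 114 and 129.7 CPM at 4 h and 148 and 196 CPM at 8 h. It was the only member among 30 eligible genes of the heat shock and cytosolic chaperone list, and its 8 h replicate 1 lay within the 0 h range and replicate 2 above it. RPAP3, a cochaperone that helps assemble RNA polymerase II, had 34.9 and 38.9 CPM at 0 h, 30.4 and 29.4 CPM at 4 h and 34.5 and 52.9 CPM at 8 h.

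A further set of deep falls came from genes with no shared role. GGT1, a cell-surface enzyme that cleaves glutathione, had the deepest dip when the smaller of its steps is taken, with 9.40 and 10.1 CPM at 0 h, 6.16 and 5.27 CPM at 4 h and 10.5 and 9.53 CPM at 8 h. BSCL2, or seipin, which shapes lipid droplets, had 31.4 and 30.2 CPM at 0 h, 14.2 and 16.8 CPM at 4 h and 25.8 and 21.2 CPM at 8 h. MAGEA2, a cancer-testis antigen, had 12.1 and 19.0 CPM at 0 h, 5.15 and 10.99 CPM at 4 h and 11.6 and 12.2 CPM at 8 h. The MAGEA2 replicates differed widely at 0 h and at 4 h. The estimates of GGT1, BSCL2 and MAGEA2 were not whole in any library, so they share reads with other transcripts, and GGT1 and MAGEA2 have close copies. ENSG00000285258, which has no symbol in the name table, had 8.59 and 9.57 CPM at 0 h, 5.68 and 6.57 CPM at 4 h and 8.46 and 13.4 CPM at 8 h, and its 8 h replicates were far apart. CCDC34, a coiled-coil protein, had 21.4 and 18.8 CPM at 0 h, 10.5 and 13.5 CPM at 4 h and 18.2 and 15.5 CPM at 8 h. CCDC82 had 24.2 and 32.7 CPM at 0 h, 21.3 and 17.3 CPM at 4 h and 21.7 and 31.4 CPM at 8 h. For CCDC82 the 0 h replicates and the 8 h replicates were each far apart.

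Signalling genes gave 5 members, of modest depth. IER3, an early response gene that modulates survival, had 15.9 and 14.3 CPM at 0 h, 10.5 and 12.1 CPM at 4 h and 12.9 and 14.9 CPM at 8 h, and was the nearest to the limit on the rise. CXCR4, a chemokine receptor, had 9.96 and 10.6 CPM at 0 h, 6.56 and 8.02 CPM at 4 h and 8.28 and 10.1 CPM at 8 h. SGK1, a kinase that responds to hormones and osmotic stress, had 7.47 and 10.99 CPM at 0 h, 7.02 and 7.36 CPM at 4 h and 8.88 and 10.9 CPM at 8 h. Replicate 1 of SGK1 at 0 h was barely above the 4 h libraries.

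The thresholds cut a continuous range. Just inside the limit on the fall stood TUT4, GUCA1B and RPAP3, with log2 ratios of -0.3002, -0.3011 and -0.3015, and just outside it RBBP8, LEO1 and COBLL1, with -0.2982, -0.2973 and -0.2966. On the rise, IER3, RPS10-NUDT3 and ATAD5 were inside with 0.3004, 0.3051 and 0.3071, and FAM184A, EBAG9 and AGGF1 outside with 0.2990, 0.2980 and 0.2976.

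Of the 16 gene lists chosen for this tissue and treatment, 12 held no member. These were the lists of the unfolded protein response (26 eligible genes), interferon response (15), developmental transcription factors (47), DNA break repair (43), oxidative phosphorylation (41), sterol and fatty acid synthesis (32), glycolysis and hypoxia (30), the circadian clock (18), TGF-beta, BMP and Wnt signalling (47), ubiquitin ligases (52), membrane traffic and autophagy (52) and p53 targets (26). Members made up 1.01% of all eligible genes, so few or none were to be looked for in a list of this size. The absence of members from a list is not read as a result. Of 60 symbol prefixes counted, KIF and CCDC held the most members, with 4 of 37 and 4 of 66 eligible genes. CEP held 3 of 35, DNAJ 2 of 35, SLC 0 of 191 and TMEM 1 of 143. Counts this small, picked from 60 prefixes, are not read as a result.

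At 8 h against caged 0 h, few members were called in either direction, in a comparison that the rule narrows because genes that went the same way at both steps could not be members. The edgeR quasi-likelihood test with Benjamini-Hochberg adjustment over all tested features called 6 of the 109 members higher (5.50%), where 14.9% of all 17449 tested features were called higher. It called 2 members lower (1.83%), against 13.2% of all features. All 109 passed the filter on low counts, and 23 of them had an unadjusted p under 0.05, against 7166 of the 17449 features and 5410 of the 10827 eligible genes. The share called was below the background in both directions, from which nothing is read about the members for that reason. The median log2 difference was 0.11 over the members and -0.014 over the eligible genes on the edgeR scale, and the ratio was 0.0012 and -0.12 on the CPM scale, so the scaling moved the eligible median by 0.10. As a description that the choice of members partly fixes, the 8 h and 0 h means lay within 0.3 of each other on the log2 CPM scale in 97 members (89.0%), against 64.4% of the eligible genes. Both 8 h libraries lay above both 0 h libraries in 12 members (11.01%, against 22.5% of eligible genes), and below them in 18 members (16.5%, against 51.6%).

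The 6 higher members included spindle and RNA genes. DLGAP5 had 61.6 and 76.0 CPM at 8 h and 43.7 and 53.6 CPM at 0 h, a log2 difference of 0.61 ± 0.12 (SE, edgeR adjusted p = 0.00942). NKAP, a nuclear protein of transcription repression and splicing, had 39.5 and 46.6 CPM at 8 h and 32.7 and 35.6 CPM at 0 h, a log2 difference of 0.44 ± 0.096 (SE, edgeR adjusted p = 0.0121). For both, the 8 h libraries lay above both 0 h libraries. CFAP36 differed by 0.31 ± 0.081 (SE, edgeR adjusted p = 0.0237), NSA2 by 0.25 ± 0.069 (adjusted p = 0.0284) and KIF18A by 0.59 ± 0.17 (adjusted p = 0.0314). NPIPB6, of a family of near-identical copies, had 12.3 and 16.7 CPM at 8 h and 8.06 and 11.7 CPM at 0 h, with a log2 difference of 0.66 ± 0.20 (SE, edgeR adjusted p = 0.0407). Its estimates are uncertain for that reason. The estimates of NKAP, NSA2 and NPIPB6 were not whole in any library, so they share reads with other transcripts.

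Lower at 8 h were HMGN5, with a log2 difference of -0.79 ± 0.23 (SE, edgeR adjusted p = 0.0315), and ENSG00000280433, with -0.63 ± 0.18 (SE, adjusted p = 0.0347). ENSG00000280433, which has no symbol in the tables used, had 7.81 and 11.4 CPM at 8 h and 15.9 and 16.3 CPM at 0 h. The estimates of ENSG00000280433 were not whole in any library, so they share reads with other transcripts. The calls changed with the libraries used. Leaving out a library of 0 h or 8 h leaves 1 in that group, and fewer features were then called over all features too. Without replicate 1 of 0 h the log2 differences of the members called higher were 0.19 to 0.46. Without replicate 2 of 8 h they were 0.18 to 0.44. Without replicate 1 of 0 h edgeR called 0 members higher (6 at an unadjusted p of 0.05), without replicate 2 of 8 h also 0 (3 unadjusted), and without replicate 1 of 8 h it called 21. The lower calls ended without either 0 h library, with 0 called and 3 at an unadjusted p of 0.05 each time, and with DESeq2 on all libraries (0 called, 3 unadjusted).

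The members' transcripts were poor in G and C and rich in lysine and glutamate codons. Sequence features were read from GENCODE 29 (GRCh38), and the rule did not use them. The median GC content of the transcript was 40.3% over the members and 48.95% over the eligible genes, and 97 members (89.0%) lay below the median of the eligible genes. At the third codon position the GC content was 38.3% against 58.6%. Lysine and glutamate codons made up a median of 19.6% of the coding sequence, against 12.9%, and the forms ending in A, AAA and GAA, 12.8% against 5.16%. In all, 63 of the 109 members (57.8%) fell in the top decile of eligible genes by lysine and glutamate codons. The members also had more exons, with a median of 13 against 10, and a longer gene span, 47.4 kb against 35.5 kb. Transcript lengths were close, with medians of 3576 and 3284 bases.

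To show what such coding sequence looks like, the 90-base stretch richest in these codons is printed for the 5 members with the highest share of AAA and GAA codons, and for GGT1, the deepest dip, as a contrast. The sequences are from GENCODE 29 on GRCh38, 5′ to 3′, with capitals on lysine and glutamate codons.
HMGN5: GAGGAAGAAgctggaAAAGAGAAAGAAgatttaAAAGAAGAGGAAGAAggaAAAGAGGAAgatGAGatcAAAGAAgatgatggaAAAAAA
SSB: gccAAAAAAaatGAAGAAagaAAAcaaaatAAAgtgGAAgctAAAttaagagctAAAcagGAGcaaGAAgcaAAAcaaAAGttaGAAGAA
CCDC34: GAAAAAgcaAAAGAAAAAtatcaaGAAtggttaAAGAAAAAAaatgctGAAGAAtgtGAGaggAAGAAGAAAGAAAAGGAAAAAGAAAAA
DNAJC2: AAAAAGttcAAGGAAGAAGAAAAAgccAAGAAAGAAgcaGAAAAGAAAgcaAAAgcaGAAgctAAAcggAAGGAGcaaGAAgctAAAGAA
NUCB2: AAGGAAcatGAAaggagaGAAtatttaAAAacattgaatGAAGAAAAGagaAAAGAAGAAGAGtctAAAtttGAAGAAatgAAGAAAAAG
GGT1: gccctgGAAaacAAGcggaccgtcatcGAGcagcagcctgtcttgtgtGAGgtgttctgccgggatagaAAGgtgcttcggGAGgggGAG
The HMGN5 gene spans chrX:81113701-81201942 on the minus strand, and its stretch is bases 736 to 825 of the coding sequence, with 20 of its 30 codons for lysine or glutamate. SSB spans chr2:169791933-169812064 on the plus strand, and its stretch, bases 568 to 657, holds 15 such codons. CCDC34 (chr11:27330827-27363868, minus strand, bases 688 to 777) and DNAJC2 (chr7:103312474-103344873, minus strand, bases 841 to 930) hold 21 each. NUCB2, a calcium-binding Golgi protein (chr11:17208153-17349980, plus strand, bases 550 to 639), holds 18. GGT1 (chr22:24583750-24629005, plus strand, bases 529 to 618) holds 7. The best stretch of a member held a median of 14 such codons, against 9 over the eligible genes.

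These features went together with the gap between replicates. In the quintile of the eligible genes with the lowest transcript GC, 63 were members, and in the next quintiles up 31, 5, 7 and 3. Genes with the opposite pattern numbered 6, 7, 16, 17 and 16 over the same quintiles. Among eligible genes that were not members, the median log2 ratio of 8 h replicate 2 to replicate 1 was 0.12 in the lowest GC quintile and -0.096 in the highest. Their 0 h gap was 0.084 in the lowest quintile and -0.084 in the highest, and their 4 h gap -0.064 and 0.057. In the lowest GC quintile the median log2 ratio of 4 h to 0 h was -0.11 for the non-members, against -0.028 in the highest quintile. With levels scaled for length and GC content in each library, the members' medians were -0.34 for 4 h to 0 h, 0.48 for 8 h to 4 h and 0.16 for the gap between 8 h replicates. Under that scaling 108 genes met the rule, 68 of them members.

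Within quintiles of like GC content, the codon difference was seen where most members lie and not in all. In the lowest GC quintile the members had a median of 20.2% lysine and glutamate codons and the other genes 14.5%, and in the second quintile 21.2% and 13.7%. In the third quintile the 5 members had 13.6% and the other genes 13.1%, in the fourth the 7 members 14.2% and the others 11.9%, and in the highest the 3 members 9.12% and the others 10.7%. By lysine and glutamate codon share, 78 members lay in the top quintile, where they were 3.62% of the genes. The non-members of that quintile had a median log2 ratio of 0.032 from 4 h to 8 h, against -0.12 in the lowest quintile, and -0.065 from 0 h to 4 h, against -0.062. By role, the lysine and glutamate share was 25.7% for the ribosome assembly group with DNAJC2, 23.9% for RNA processing and 13.0% for signalling members. These are descriptions over genes, which are not independent replicates.

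**Figure D2:**
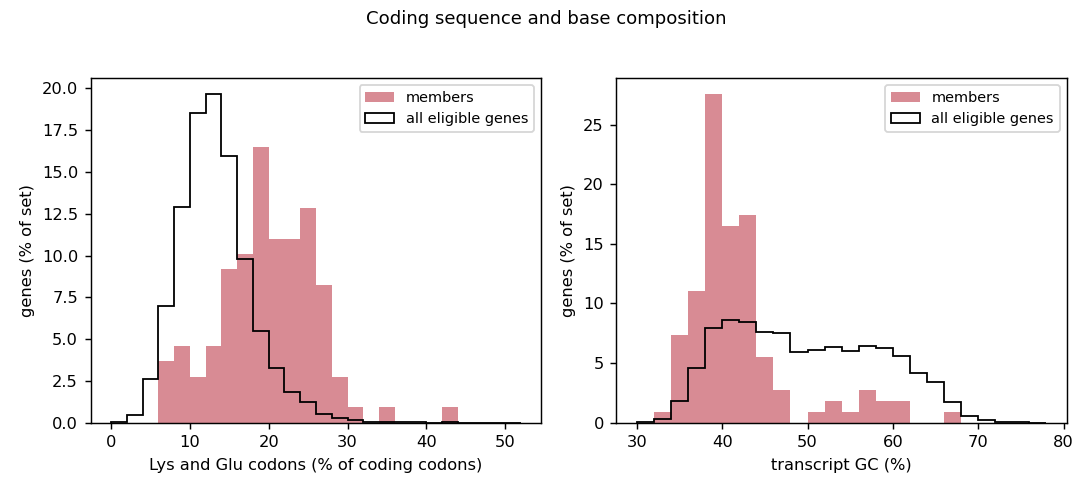
Histograms of the share of lysine and glutamate codons in the coding sequence (left) and of transcript GC content (right), as percent of genes, for the members (filled) and all eligible genes (outline). Members lie to the high side in these codons, with a median of 19.6% against 12.9%, and to the low side in GC content, with 40.3% against 48.95%.

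**Figure D3:**
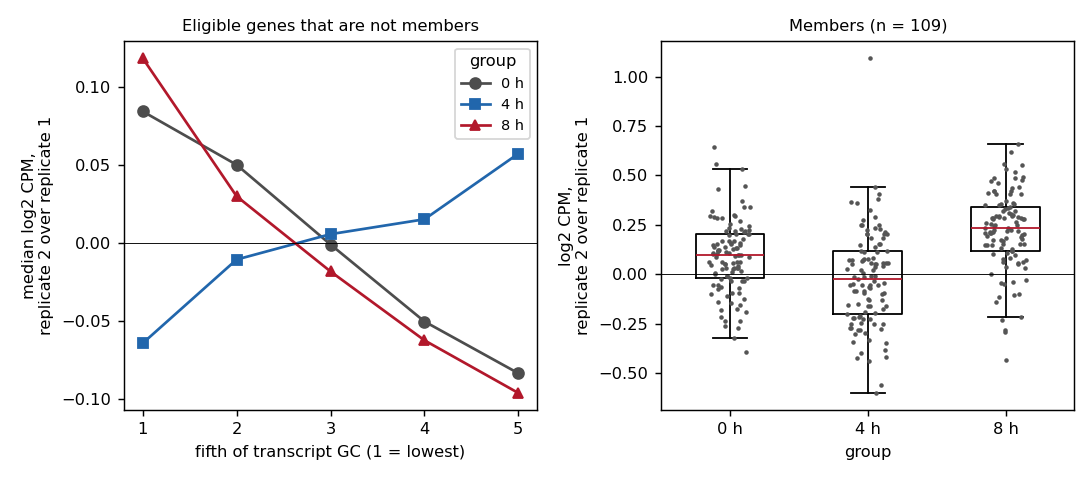
Log2 CPM of replicate 2 over replicate 1 at each time, as the median of the eligible non-members in each of 5 equal bins of transcript GC (left, bin 1 lowest) and for each member (right; boxes give quartiles and median, whiskers the points within 1.5 box heights). At 8 h most members lie above 0, with a median of 0.24, and the non-members' medians go from 0.12 in the lowest bin to -0.096 in the highest.

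The promoters of the cell division members are shown because several carry elements known from cell cycle genes. RefSeq promoters (GRCh38.p14, 250 bases before the start to 50 after) were matched by symbol for 87 of the 109 members. The CHR element TTTGAA, which in late cell cycle genes is bound by the MuvB complex, was found on either strand in 21.8% of the members, in 9.14% of the eligible genes and in 15.4% of all promoters. The CCAAT box was found in 46.0%, 37.2% and 35.7%. Of the 13 cell division members, 10 had a promoter in the table, and TTTGAA was found in 8 of them, KIF18A, CKAP2L, KIF15, TOP2A, NUF2, CEP55, DBF4 and DLGAP5. The last 100 bases before the start are given for the 3 of them that had a match within those bases. In the rest of the 8 no match lay wholly within them, so the 3 are not typical. The bases are on the gene's strand, with TTTGAA or its complement TTCAAA and CCAAT in capitals.
KIF18A: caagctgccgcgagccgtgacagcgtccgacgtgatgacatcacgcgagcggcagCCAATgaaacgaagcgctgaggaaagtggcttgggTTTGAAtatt
CKAP2L: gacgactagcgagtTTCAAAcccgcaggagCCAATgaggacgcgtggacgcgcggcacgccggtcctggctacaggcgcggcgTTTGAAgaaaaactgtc
KIF15: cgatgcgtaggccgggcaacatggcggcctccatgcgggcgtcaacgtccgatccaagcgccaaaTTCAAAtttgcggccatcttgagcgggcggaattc
These lie at chr11:28108157-28108256 (minus strand), chr2:112764610-112764709 (minus strand) and chr3:44761694-44761793 (plus strand). KIF18A has TTTGAA close to the start with CCAAT upstream, CKAP2L has the element on both strands, and KIF15 has it without CCAAT in these bases. A match is a description and says nothing of binding in these cells.

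The other motifs searched on both strands were TATAAA, found in 12.6% of the members' promoters against 4.95% of the eligible genes' and 11.95% of all, GGGCGG in 67.8% against 73.1% and 44.6%, and CCGGAAG in 25.3% against 20.1% and 10.7%. The cyclic AMP core TGACGT was found in 13.8% against 12.6% and 8.32%, and the E-box CACGTG in 5.75% against 10.8% and 7.43%. The NRF1 core GCGCATG was found in 16.1% against 7.97% and 4.67%. The median GC content of the members' promoters was 62.0%, against 66.0% over the eligible genes.

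By chromosome, 16 members (14.7%) were on chromosome 2, which holds 6.83% of the eligible genes, and 0 were on chromosome 19, which holds 632 eligible genes. Both are given as extremes of all the chromosomes counted, and chromosome 18, with 153 eligible genes, also held 0. Whether this goes with GC content was not tested. Among those on chromosome 2 were SSB, PPIG, CWC22, CIR1, CKAP2L, CFAP36 and CXCR4. An estimate was not whole within 0.01, and so shared reads with another transcript, in some library for 74 members (67.9%), against 65.7% of the eligible genes. Such sharing makes single estimates uncertain for read-through and copied genes, among them RPS10-NUDT3, PMF1-BGLAP, FAM72C, CDK11B and ANKRD18B.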

How the data were processed

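The authors deposited 1 table of estimated counts (expected counts, not normalised) per gene row in 6 libraries, made with Salmon 1.1.0 on GRCh38 per the submitters' processing notes, which also name R 3.6.1 and DESeq2. The DESeq2 version, the transcript annotation and the strand setting are not stated in these sources. CPM was computed on the sum of all gene rows; plasmid rows, 11.5% to 15.5% of a library, were left out. Counts were rounded and filtered with filterByExpr (minimum count 10, minimum total 15), scaled by TMM and fitted over all 6 libraries with edgeR 4.0.16 (quasi-likelihood test, legacy=TRUE) in R 4.3.3, with Benjamini-Hochberg adjustment over 17449 features and a threshold of 0.05. The SE given with an edgeR log2 difference is the size of the difference divided by the square root of the test's F statistic. The common biological coefficient of variation was 6.34%. No replicate pair agreed within sampling noise, with chi-square values of 3.80, 3.44 and 4.00 for each degree of freedom. The procedure was tested on simulated data. Biotype, coordinates and coding sequence came from GENCODE 29, matched by Ensembl ID without version, using 1 transcript a gene; 45 eligible genes had none.

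The members and gene lists were chosen with earlier results of these data known. The text names the 12 members of deepest dip (the smaller of the steps), the 6 of highest level, those called at 8 h, up to 4 of each list, up to 3 of a symbol prefix with at least 4 members, and those at the thresholds. Further members named as examples of a role were chosen after their values were seen. Alternatives were other scalings (RLE, upper quartile, totals, cyclic loess offsets), DESeq2 1.42.0 and limma-voom (limma 3.58.1), other filters and limits, a replicate block, each library left out and, chosen after seeing the data, cyclic loess and length and GC scaling of CPM and length and GC offsets of the fit.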

Additional observations from a re-analysis of the deposited data

How the results depend on the processing

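With another scaling of CPM the rule was met by 108 to 134 genes: 113 with TMM, of which 85 were members, 117 with RLE (85), 129 with upper quartiles (96), 134 with plasmid rows in the totals (106), 114 with cyclic loess (69) and 108 with length and GC scaling (68). Under TMM, loess and length and GC scaling together, 57 members remained. A floor of 1 CPM gave 180 genes, a step of 0.2 gave 234 and a step of 0.5 gave 20, by construction. Leaving out 1 library, which also eases the condition that the 4 h libraries lie below the others, gave 88 to 244 genes.

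At 8 h against 0 h, 6 members were called higher and 2 lower. The higher count was 2 with library totals alone, 2 without a filter on low counts, 11 with a replicate block, 12 with loess offsets, 19 with length and GC offsets and 0 to 21 with 1 library left out. The lower count was 4 with totals, 0 with DESeq2 (3 at an unadjusted p of 0.05), 0 without a filter (4 unadjusted), 1 with the replicate block, 0 with loess (3 unadjusted) and 0 to 3 with 1 library left out. Over all features, 2602 were higher and 2306 lower; totals alone gave 1592 and 3899, no filter gave 1597 higher, DESeq2 gave 1215 lower, and leaving out 1 library gave 1373 to 2246 higher and 902 to 2082 lower. The causes were not tested.

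No pairing by replicate number was seen over all genes together. Across genes, deviations from the group means correlated at 0.00081 between 0 h and 4 h, 0.047 between 0 h and 8 h and -0.050 between 4 h and 8 h. These values cannot settle whether replicates were paired. The gap between replicates ran the same way with GC content at 0 h and 8 h, and the other way at 4 h. With the replicate block, 2376 features were higher and 2031 lower. No named gene turned its direction past the threshold. Where a group kept 1 library, its spread was taken from the other groups. Replicates varied by more than counting error, so depth alone does not set the precision.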

Other observations

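Some members of smaller groups have not been given above. Their values are descriptions, since the rule used them. ARID4B, a chromatin protein of SIN3 corepressor complexes, had 75.4 and 76.9 CPM at 0 h, 48.0 and 48.6 CPM at 4 h and 63.8 and 72.1 CPM at 8 h, with close replicates at 0 h and 4 h and both 8 h libraries below those of 0 h. REST, the repressor of neuronal genes, had 29.5 and 34.4 CPM at 0 h, 22.8 and 23.7 CPM at 4 h and 35.0 and 32.3 CPM at 8 h. BAZ1A, a subunit of ACF chromatin remodellers, had 90.0 and 99.7 CPM at 0 h, 64.0 and 82.2 CPM at 4 h and 102 and 117 CPM at 8 h, and both 8 h libraries were above those of 0 h. None of these 3 was called at 8 h against 0 h by edgeR, with adjusted p of 0.580, 0.182 and 0.0849.

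The 4 members with mitochondrial proteins had medians of -0.39 at 4 h and 0.42 from 4 h to 8 h on the log2 CPM scale. LYRM7, an assembly factor of respiratory complex III, had 19.2 and 18.3 CPM at 0 h, 13.5 and 11.6 CPM at 4 h and 16.6 and 17.8 CPM at 8 h. TEFM, the mitochondrial transcription elongation factor, had 13.2 and 13.6 CPM at 0 h, 10.8 and 9.34 CPM at 4 h and 13.6 and 11.7 CPM at 8 h. In contrast to most members, replicate 1 was the higher 8 h library for TEFM.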
